A study of Homo sapiens with 26 samples.

Results

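Gemcitabine is a deoxycytidine analogue that is inert until the cell phosphorylates it. DCK adds the first phosphate and sets the pace of activation, TK2 does the same in mitochondria, CMPK1 makes the diphosphate, and nucleoside diphosphate kinases such as NME1 make the triphosphate that enters DNA. CDA deaminates the drug itself, DCTD deaminates its monophosphate, the 5'-nucleotidases NT5C, NT5C2 and NT5C3A remove phosphate from nucleoside monophosphates, and SAMHD1 hydrolyses deoxynucleoside triphosphates. The transcripts of these 10 genes were followed across 26 single cell-derived cell lines (SCDCLs) of pancreatic ductal adenocarcinoma. They were found by Ensembl identifier, and all 10 are among the 41078 genes of the deposited table.

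Each library is messenger RNA of 1 SCDCL, sequenced once, so no SCDCL has a replicate library and p-values measure the spread between SCDCLs. The labels name the parental line as BxPC3 for 12 libraries and Panc1 for 14, both established lines without added alleles. Gemcitabine is given as a treatment in every label, but by the methods the drug was used in viability assays apart from the sequencing. The response of each library was not analysed here. Libraries were grouped by SMAD4, which encodes a transducer of TGF-beta signals and is deleted in BxPC3. SMAD4 was at 0 to 0.0440 TPM (a library's transcript level scaled for transcript length) in 12 SMAD4-negative libraries and at 28.1 to 52.2 TPM in 14 SMAD4-positive ones. The SMAD4-negative group holds 5 libraries labelled BxPC3 and 7 labelled Panc1, and the SMAD4-positive group holds 7 of each. SMAD4 was thus at odds with the label in 7 libraries of each name, and both groupings are given below. The SMAD4 groups rest on 1 measured gene and not on a label, and SMAD4 itself is left out of all counts between them. Had labels been exchanged, the SMAD4 groups could be the parental lines themselves. A difference between the groups could then not be told apart from one between lines. The SCDCLs would in that case not be independent replicates of SMAD4 status. Whether this holds was not tested.

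The groups differed in much of the transcriptome. The mesenchymal filament gene VIM was at 1.42 to 73.2 TPM in SMAD4-negative libraries and at 3047 to 4526 TPM in SMAD4-positive ones. The epithelial cadherin gene CDH1 was at 90.8 to 198 and 0.338 to 7.74 TPM. CDKN2A, which both lines lack, was listed at 0 in all 26. Of the immune markers, PTPRC and CD3E were under 1 TPM throughout, while CD68, also a lysosomal gene of other cells, was at 5.27 to 26.9 TPM in SMAD4-negative and 42.5 to 141 TPM in SMAD4-positive libraries. The endothelial list summed to at most 6.13 TPM and the fibroblast list to at most 3.63 TPM in any library. Libraries totalled 27035724 to 34945608 estimated counts.

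The genes lie on 7 chromosomes of GRCh38. CDA (ENSG00000158825) spans positions 20589086 to 20618903 of chromosome 1 and CMPK1 (ENSG00000162368) 47333790 to 47394866 of the same chromosome. DCK (ENSG00000156136) spans 70992538 to 71030914 and DCTD (ENSG00000129187) 182890060 to 182917936 of chromosome 4. NME1 (ENSG00000239672) spans 51153559 to 51162428 and NT5C (ENSG00000125458) 75130225 to 75131757 of chromosome 17. The others are NT5C2 (ENSG00000076685, chromosome 10, 103087185 to 103277605), NT5C3A (ENSG00000122643, chromosome 7, 33014130 to 33062796), SAMHD1 (ENSG00000101347, chromosome 20, 36890229 to 36951893) and TK2 (ENSG00000166548, chromosome 16, 66508003 to 66552544).

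The starts of CDA and DCK are shown because these genes mark the extremes of the results: CDA differed most between the SMAD4 groups and DCK least. Each begins 250 bases before the RefSeq start (GRCh38.p14, plus strand) and ends before the first GENCODE exon base inside that window. They are chr1:20588847-20589085 for CDA and chr4:70993399-70993562 for DCK. The DCK stretch lies inside the GENCODE span of DCK, which starts at 70992538. Capitals mark an E-box (CACCTG, or CAGGTG on the other strand) or a GC box (GGGCGG, or CCGCCC on the other strand), and these motifs do not overlap.
CDA: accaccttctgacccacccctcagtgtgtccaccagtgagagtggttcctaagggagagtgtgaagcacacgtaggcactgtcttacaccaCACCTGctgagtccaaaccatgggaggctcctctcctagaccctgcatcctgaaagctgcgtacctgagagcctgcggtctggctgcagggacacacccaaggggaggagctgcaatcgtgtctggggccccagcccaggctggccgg
DCK: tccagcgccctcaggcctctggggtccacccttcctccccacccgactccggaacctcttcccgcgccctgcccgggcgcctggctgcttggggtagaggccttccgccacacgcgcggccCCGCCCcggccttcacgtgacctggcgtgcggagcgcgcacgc
Over the whole 250 bases before the start, CDA held 5 CpG dinucleotides and DCK 31, against a median of 11 over 35116 RefSeq promoters of the same length. The CDA window held 1 E-box of these letters, starting at position -159, and no GC box. The DCK window held 3 GC boxes, at -129, -26 and -18, and no E-box of these letters. Other E-box letters, such as the cacgtg in the DCK stretch, were not searched for. An E-box of these letters was present in 6143 of the 35116 promoters and a GC box in 42.6%. No other member had an E-box of these letters in its window. These matches describe the letters alone, and binding was not measured.

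DCK, the kinase of the rate-limiting step, was at similar levels in both SMAD4 groups. In SMAD4-negative libraries DCK had a lowest, median and highest level of 34.0, 38.3 and 42.5 TPM, and in SMAD4-positive libraries of 27.5, 35.3 and 50.4 TPM. The ranges overlapped, with 1 SMAD4-positive library above and 5 below all SMAD4-negative ones. The log2 difference, SMAD4-negative minus SMAD4-positive, was 0.10 (SE 0.08), with an adjusted p of 0.229 by edgeR's quasi-likelihood test.

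**Figure D1:**
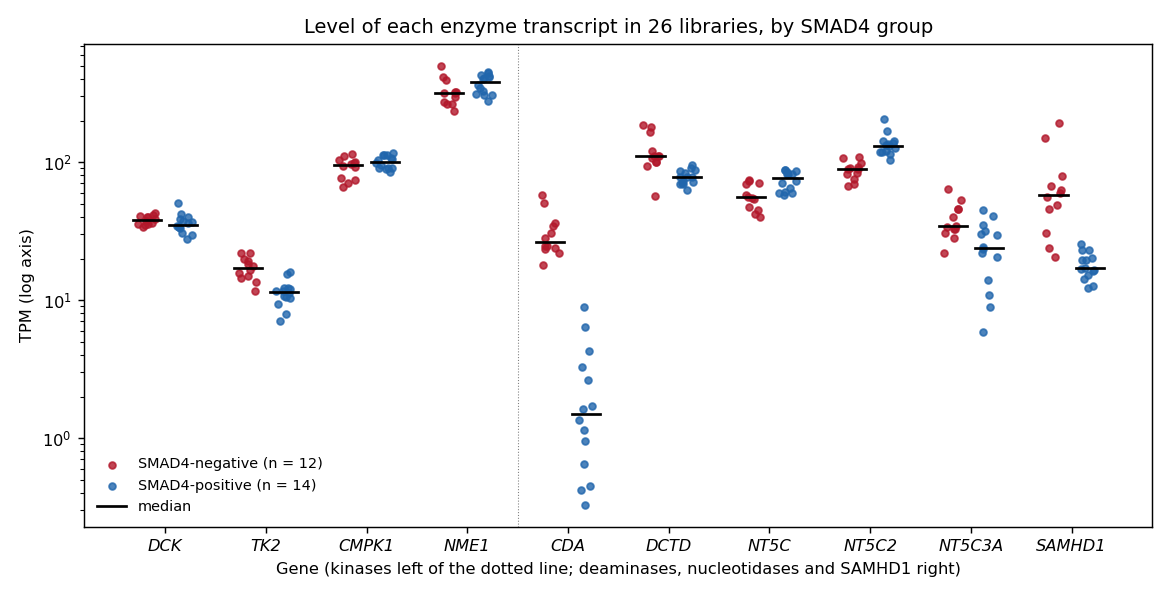
TPM of each gene (log axis) in the 12 SMAD4-negative and 14 SMAD4-positive libraries, each point a library and each line a median. The CDA points of the groups do not overlap (17.9 to 57.5 against 0.328 to 8.96 TPM), whereas the DCK points lie at 34.0 to 42.5 and at 27.5 to 50.4 TPM.

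The other kinases differed by less than 2-fold. TK2, the mitochondrial deoxynucleoside kinase, was at 11.69, 17.17 and 21.98 TPM in SMAD4-negative libraries and at 7.0, 11.38 and 16.11 TPM in SMAD4-positive ones. TK2 was higher in SMAD4-negative libraries by 0.61 (SE 0.11) on the log2 scale, with an adjusted p of 7.85e-06 by edgeR. CMPK1 was at 65.9, 94.7 and 114 TPM in SMAD4-negative and at 84.7, 101 and 117 TPM in SMAD4-positive libraries. NME1 was the most abundant of the 10 in both groups, at 235, 316 and 498 TPM and at 276, 379 and 453 TPM. Neither CMPK1 (log2 difference -0.13, SE 0.09, adjusted p 0.181 by edgeR) nor NME1 (-0.16, SE 0.12, adjusted p 0.210) passed the test. Among the libraries labelled BxPC3 alone, CMPK1 was lower in SMAD4-negative libraries by edgeR (log2 difference -0.33, adjusted p 0.0415), as was NME1 (-0.45, adjusted p 0.0117), and among those labelled Panc1 the values were 0.00 and 0.03. NME1 shares sequence with its neighbour NME2, whose median was 1062 TPM in SMAD4-negative and 1072 TPM in SMAD4-positive libraries. A readthrough gene of both was at medians of 16 and 30 TPM, so reads may be shared among these genes. Re-estimating each library's counts gave NME1 a median SD of 0.0175 and 0.0185 on the log2 scale, the smallest of the 10 in each group.

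CDA, which inactivates the drug by deamination, showed the largest difference of the 10. It was at 17.9, 26.49 and 57.5 TPM in SMAD4-negative libraries and at 0.328, 1.49 and 8.96 TPM in SMAD4-positive ones. Every SMAD4-negative library lay above every SMAD4-positive library. CDA was higher in SMAD4-negative libraries by 3.67 (SE 0.44) on the log2 scale, a 12.7-fold difference with an adjusted p of 1.41e-08 by edgeR. The difference was 4.33 among libraries labelled BxPC3 and 3.2 among those labelled Panc1. The SMAD4-positive values rest on 4.1 to 126 estimated counts per library, against 229 to 732 in SMAD4-negative libraries. As each library is a bulk extract, fewer expressing cells and less RNA per cell cannot be told apart.

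DCTD, the deaminase acting on the monophosphate, was also higher in SMAD4-negative libraries. Its levels were 56.4, 110 and 187 TPM there and 63.0, 77.5 and 95.3 TPM in SMAD4-positive libraries. In SMAD4-negative libraries 10 of 12 lay above the whole SMAD4-positive range, and 1, library 1 labelled Panc1, lay below it. The log2 difference was 0.63 (SE 0.13), with an adjusted p of 6.66e-05 by edgeR.

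The 3 nucleotidases did not move together. NT5C2, the cytosolic nucleotidase that prefers purine monophosphates, was lower in SMAD4-negative libraries, at 67.5, 89.5 and 109 TPM against 104, 131 and 204 TPM. Its log2 difference was -0.61 (SE 0.08), with an adjusted p of 9.89e-08 by edgeR, and 10 of 12 SMAD4-negative libraries lay below all SMAD4-positive ones. NT5C, the cytosolic deoxynucleotidase, was at 40.2, 55.6 and 74.5 TPM against 58.1, 77.2 and 88.0 TPM. NT5C was lower in SMAD4-negative libraries by edgeR, with a log2 difference of -0.37 (SE 0.10) and an adjusted p of 0.000994, though among libraries labelled BxPC3 alone the adjusted p was 0.0524. NT5C3A, the pyrimidine nucleotidase, went the other way, at 21.9, 34.2 and 64.1 TPM against 5.88, 23.8 and 45.3 TPM. Its log2 difference was 0.70 (SE 0.24), with an adjusted p of 0.0103 by edgeR. The NT5C3A call was lost among libraries labelled BxPC3 alone (adjusted p 0.10) and with re-estimated counts that were not rebuilt from transcript length (adjusted p 0.117). The mean transcript length that the authors assigned to NT5C3A ran from 384 to 920 bases across libraries.

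SAMHD1, which breaks down deoxynucleoside triphosphates, was the other transcript past 2-fold. It was at 20.47, 58.0 and 193 TPM in SMAD4-negative libraries and at 12.22, 17 and 25.28 TPM in SMAD4-positive ones. In SMAD4-negative libraries 10 of 12 lay above all SMAD4-positive libraries, and libraries 6 and 3, labelled Panc1, lay within their range at 20.47 and 23.7 TPM. The highest were library 16 labelled BxPC3 at 193 TPM and library 1 labelled Panc1 at 149 TPM, and the next was at 78.7 TPM. The log2 difference was 1.97 (SE 0.26), a 3.91-fold difference with an adjusted p of 1.06e-07 by edgeR. It was 2.14 among libraries labelled BxPC3 and 1.87 among those labelled Panc1.

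**Figure D2:**
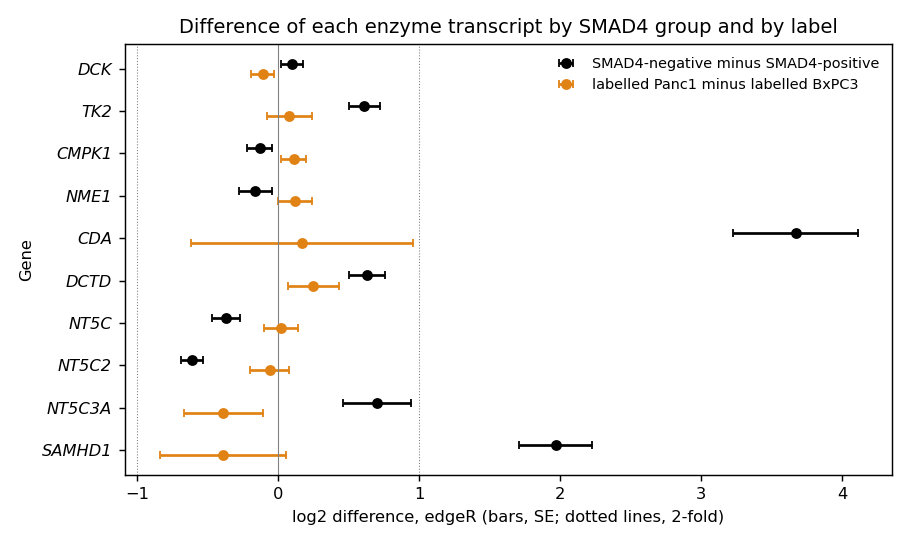
log2 difference of each gene from edgeR with its SE, between SMAD4 groups (black, SMAD4-negative minus SMAD4-positive) and between labels (orange, Panc1 minus BxPC3). CDA at 3.67 and SAMHD1 at 1.97 are the only genes of the 10 past the dotted 2-fold line, and all differences by label lie between -0.39 and 0.25.

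Counted together, 2 of the 10 genes, CDA and SAMHD1, passed an adjusted p of 0.05 and a 2-fold difference, against 39.0% of the 16007 genes tested. Both were higher in SMAD4-negative libraries, as were 51.3% of all genes that passed. By the adjusted p alone 7 of the 10 passed, against 76.7% of all genes. Of these, CDA, SAMHD1, NT5C3A, DCTD and TK2 were higher and NT5C2 and NT5C lower in SMAD4-negative libraries. Only CDA had groups that did not overlap, higher in SMAD4-negative libraries, against 14.6% of all genes in that direction. The median absolute log2 difference was 0.61 over the 10 and 0.74 over all genes tested. The share of enzymes called was thus at or below that of all genes. The size of the CDA difference stood above that of 89.9% of genes and that of DCK above 8.25%.

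Between the labels as given, none of the 10 passed the test. Each label holds libraries of both SMAD4 groups, so this comparison is not one of libraries with SMAD4 against libraries without it. If labels had been exchanged, it would mix the lines, and an exchange was not tested. The log2 difference, Panc1 minus BxPC3, ran from -0.39 for SAMHD1 and NT5C3A to 0.25 for DCTD, and each adjusted p was 1.000 by edgeR. CDA was at 0.328, 3.46 and 50.2 TPM in the 12 libraries labelled BxPC3 and at 0.422, 13 and 57.5 TPM in the 14 labelled Panc1. Of 16008 genes tested, 0 passed (0%), with 367 at an unadjusted p under 0.05, none of them among the 10. DESeq2 called 1 gene, MYH16, which was named after its value was seen. Whether the SMAD4 difference itself depended on the label was tested as an interaction. It passed for 0 of 17455 genes (0%) by edgeR, with 1357 at an unadjusted p under 0.05. Of the 10, NME1 had the smallest interaction p by edgeR (unadjusted 0.0449, adjusted 0.638).

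The order of the transcripts shows how the set was weighted in each group, since TPM allows levels of different genes to be compared. NME1 led in all libraries. In SMAD4-negative libraries DCTD (median 110 TPM), CMPK1 (94.7) and NT5C2 (89.5) followed, and CMPK1 exceeded NT5C2 in only 7 of 12 libraries. SAMHD1 exceeded NT5C in 6 of 12, so these neighbours were not separated. In SMAD4-positive libraries NT5C2 (131 TPM) came next and exceeded CMPK1 (101) in 14 of 14 libraries. DCTD and NT5C were not well separated there (9 of 14), and CDA (1.49) was below TK2 (11.38) in all 14. The 10 transcripts summed to 745 to 1041 TPM in SMAD4-negative and to 745 to 942 TPM in SMAD4-positive libraries.

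The balance of the activating kinase to the deaminase followed CDA. DCK over CDA was 0.610, 1.42 and 1.99 in SMAD4-negative libraries and 3.80, 26 and 121 in SMAD4-positive ones, as lowest, median and highest ratio of TPM. DCK over the sum of the 3 nucleotidases was 0.171, 0.214 and 0.235 against 0.0888, 0.153 and 0.202. DCK over TK2 was 1.78, 2.22 and 3.07 against 2.38, 3.13 and 6.05. These ratios were not tested, and they are ratios of transcript levels and not of enzyme activities.

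**Figure D3:**
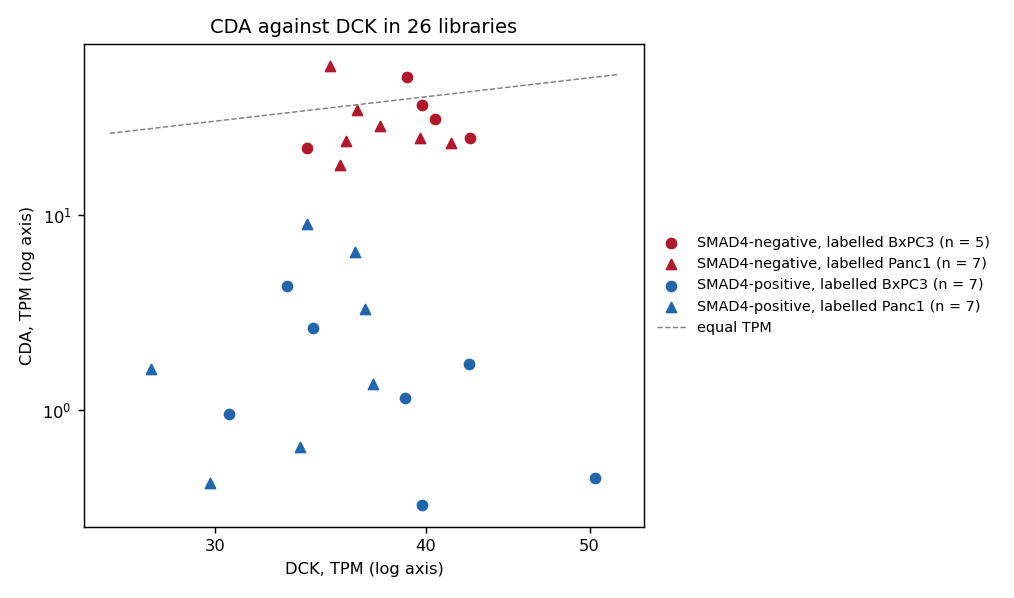
CDA against DCK in TPM (both axes log), with each library a point, coloured by SMAD4 group and shaped by label. DCK spans 27.5 to 50.4 TPM in all libraries, while CDA runs from 0.328 to 57.5 TPM, and circles and triangles mix within each colour.

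Variation among SCDCLs of a group was measured as the SD of log2(TPM + 1). SAMHD1 varied most of the 10 in SMAD4-negative libraries, with an SD of 0.94 (jackknife SE 0.20) and a 9.42-fold range, larger than the SD of 97.0% of 14375 genes. In SMAD4-positive libraries its SD was 0.30 (SE 0.05). On this scale CDA varied most in SMAD4-positive libraries, with an SD of 0.91 (SE 0.17) and a 27.3-fold range, from library 19 labelled BxPC3 at 0.328 TPM to library 9 labelled Panc1 at 8.96 TPM. Its SD in SMAD4-negative libraries was 0.48 (SE 0.11), and libraries 4 and 26 were highest at 57.5 and 50.2 TPM. The CDA SD in SMAD4-positive libraries depends on the scale, from 0.43 on log2(TPM + 5) to 1.37 on log2(TPM + 0.1), and on log2(CPM + 1) it was 0.67, below that of NT5C3A at 0.74. Re-estimating each library's counts gave CDA a median SD of 0.310 in SMAD4-positive libraries. That value is on the log2 scale of counts not length-scaled, with a smaller pseudocount, where the SD among libraries was 1.49. Part of the CDA spread is thus estimation error, but 0.310 is not to be set against 0.91.

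NT5C3A had an SD of 0.81 (SE 0.16) in SMAD4-positive and 0.42 (SE 0.09) in SMAD4-negative libraries. Its estimation SDs were 0.328 and 0.271, the largest of the 10 on either side. On the scale of those re-estimates its SDs among libraries were 0.80 and 0.59. DCTD had an SD of 0.47 (SE 0.13) in SMAD4-negative libraries and 0.17 (SE 0.03) in SMAD4-positive ones. Its 3 highest libraries, 7, 6 and 3, labelled Panc1, were at 187, 180 and 165 TPM. DCK had the smallest SD in SMAD4-negative libraries, 0.10 (SE 0.01), and only 70 of 14375 genes had a smaller one. On the log2(CPM + 1) scale, CPM being counts scaled to the library total with edgeR's TMM factors, the DCK SD was 0.17 and larger than that of 13.9% of genes, so its place among the most even genes depends on the scale. In SMAD4-positive libraries the DCK SD was 0.22 (SE 0.05).

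**Figure D4:**
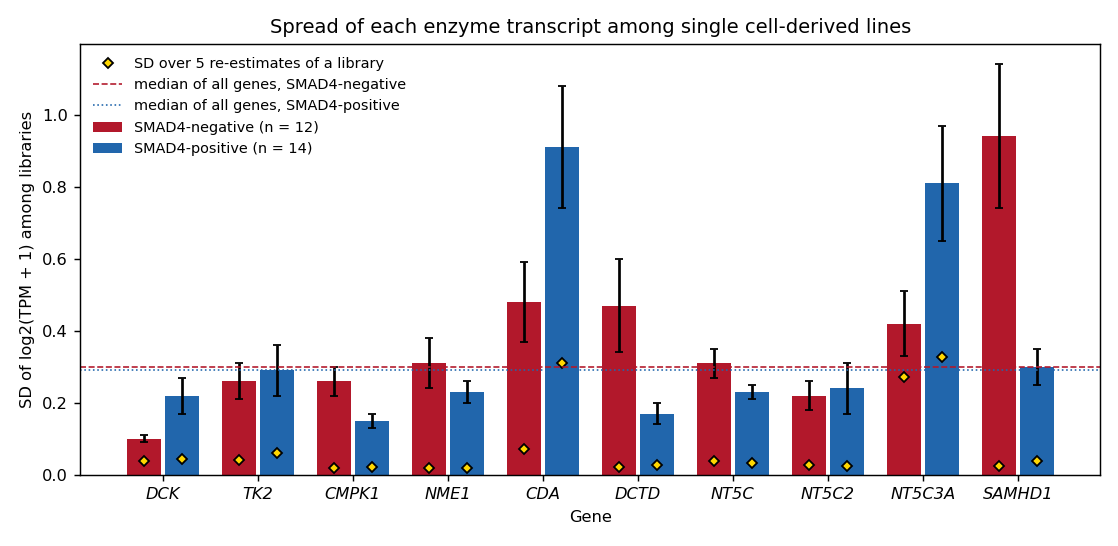
SD of log2(TPM + 1) among the libraries of each SMAD4 group, with jackknife SE bars, the SD over re-estimates of a library as diamonds, and the median SD of all genes as lines (0.30 and 0.29). The diamonds are on the log2 scale of counts not length-scaled, with a smaller pseudocount, so they are not directly comparable with the bars. On this scale SAMHD1 is widest in the SMAD4-negative group (0.94) and CDA in the SMAD4-positive group (0.91), where NT5C3A is wider on log2(CPM + 1).

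The difference in spread between the groups was tested with limma on absolute deviations from the group median. For none of the 10 did it pass, against 0.459% of 12632 genes tested. SAMHD1 came nearest and was the only one of the 10 with an unadjusted p under 0.05 (limma p 0.0134, adjusted p 0.280). The SD was larger in SMAD4-negative libraries for 5 of the 10, SAMHD1 and DCTD as above and CMPK1 (0.26 against 0.15), NME1 (0.31 against 0.23) and NT5C (0.31 against 0.23). NT5C2 (0.22 against 0.24) and TK2 (0.26 against 0.29) differed little.

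Whether the transcripts varied together within a SMAD4 group was asked with 38 correlations, of DCK with each other member and of each member with the mean log2(TPM + 1) of 10 proliferation genes. After adjustment over the 38, 4 passed with 100000 permutations, and 9 had an unadjusted p under 0.05. In SMAD4-positive libraries DCK rose with SAMHD1 (Pearson's r 0.73, permutation p 0.00256, adjusted 0.0337; Spearman's rho 0.75, permutation p 0.00241, adjusted 0.0323). In the same libraries the proliferation genes went with NME1 (r 0.72, permutation p 0.00301, adjusted 0.0337; rho 0.68, permutation p 0.00872, adjusted 0.0828). They also went with SAMHD1 (r 0.73, permutation p 0.00355, adjusted 0.0337; rho 0.76, permutation p 0.00255, adjusted 0.0323). With DCK they had r 0.60, which did not pass (permutation p 0.0226, adjusted 0.130). Whether DCK and SAMHD1 went together apart from the proliferation genes was not tested. In SMAD4-negative libraries the proliferation genes went with NT5C (r 0.79, permutation p 0.00291, adjusted 0.0337; rho 0.69, permutation p 0.0157, adjusted 0.0996). On log2(CPM + 1) this relation with NT5C did not pass (r 0.63, adjusted permutation p 0.142), and that with DCTD did (r 0.79, adjusted permutation p 0.0332). By rho, the proliferation genes also went with NT5C3A in SMAD4-positive libraries (rho 0.78, permutation p 0.00154, adjusted 0.0323; r 0.60, permutation p 0.0240, adjusted 0.130). Without the 2 libraries farthest from the median of the first measure, r of the 4 Pearson relations was 0.60, 0.63, 0.51 and 0.68 in the order above. No adjusted permutation p was then under 0.207, so none of the 4 passed. Leaving these libraries out also narrows the range and the number of libraries, so whether the relations rest on them cannot be judged.

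Within a label, DCK and SAMHD1 had r of 0.82 in the 7 SMAD4-positive libraries labelled BxPC3 and 0.29 in the 7 labelled Panc1, and the difference between these was not tested. The proliferation genes and SAMHD1 had 0.79 and 0.46, and the proliferation genes and NME1 had 0.75 in both. The proliferation genes and NT5C had r of 0.96 in the 7 SMAD4-negative libraries labelled Panc1, and the 5 labelled BxPC3 are too few. DCK and CDA did not go together, with r of -0.02 in SMAD4-negative libraries (adjusted permutation p 0.952) and -0.16 in SMAD4-positive libraries (adjusted permutation p 0.681).

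**Figure D5:**
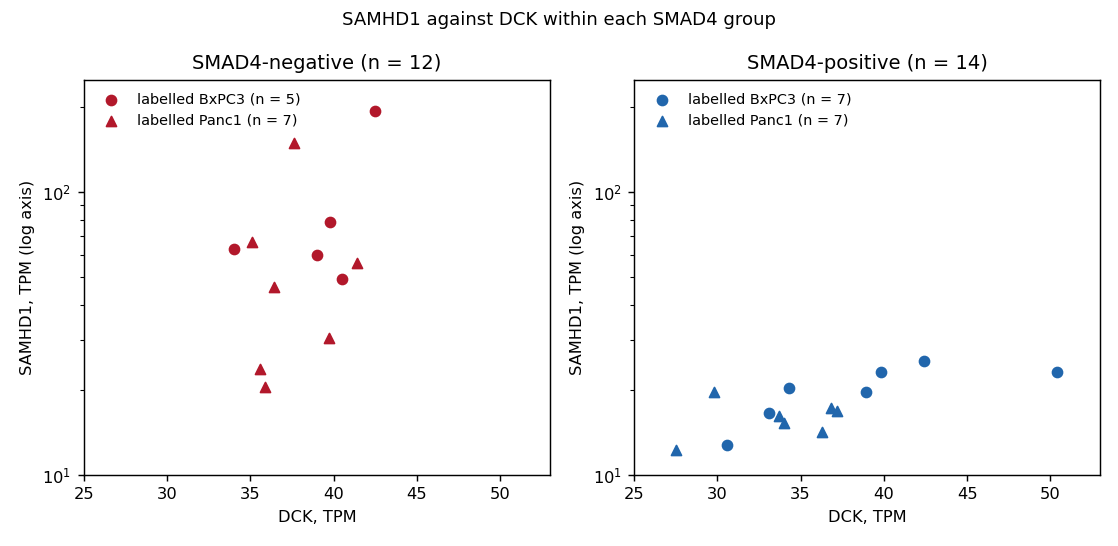
SAMHD1 (TPM, log axis) against DCK (TPM) in each SMAD4 group, each point a library, shaped by label. In the SMAD4-positive group SAMHD1 runs from 12.22 to 25.28 TPM and tends to be higher where DCK is higher (r 0.73, and 0.60 without the 2 libraries farthest in DCK), and in the SMAD4-negative group it runs from 20.47 to 193 TPM.

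The genes whose log2(TPM + 1) went most closely with CDA and DCK within a group were picked by Pearson's r among genes averaging 10 TPM or more, as a description without a test. With CDA these were AREG (r 0.95), CD68 (0.93) and GM2A (0.92) over the 12 SMAD4-negative libraries, among 9241 genes, and PINK1 (0.85), MGST3 (0.78) and G0S2 (0.77) over the 14 SMAD4-positive libraries, among 9147. AREG encodes the EGFR ligand amphiregulin and ran from 88.4 to 795 TPM in SMAD4-negative libraries. PINK1, a mitochondrial kinase gene, lies on chromosome 1 at 20633458 to 20651511, 14554 bases beyond the end of CDA and on the same strand. PINK1 also went with CDA over the SMAD4-negative libraries (r 0.73), yet it was lower there than in SMAD4-positive libraries by edgeR (log2 difference -0.64, SE 0.18, adjusted p 0.00246), opposite to CDA. With DCK the nearest were UGP2 (0.83), ZNF92 (0.83) and PGAM1 (0.79) in SMAD4-negative and RMI2 (0.94), MAD2L1BP (0.91) and BAG5 (0.91) in SMAD4-positive libraries.

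Around these enzymes, 34 other genes of nucleoside and nucleotide metabolism were followed, of which 31 were tested. By adjusted p and 2-fold difference, 5 were higher and 6 lower in SMAD4-negative libraries, and by adjusted p alone 12 and 10. Over all genes 39.0% and 76.7% passed these rules, so neither count stands apart. Of 6 other nucleotidases tested, 5 were lower by adjusted p and 2 past 2-fold, and none was higher. Of 6 transporters and targets tested, 5 were lower by adjusted p and 4 past 2-fold, and none was higher. These lists are small, and the same shares of 76.7% and 39.0% are the background of both. The median log2 difference was 0.07, -0.80 and -1.29 for the 3 lists and -0.01 for all genes tested.

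Of 13 genes of these lists that passed both thresholds with at least 10 TPM in the higher group, the 8 with the largest differences were NT5DC3, NME4, SLC29A1, AK4, NME3, RRM2, RRM2B and ADA. NT5DC3, a member of the nucleotidase-domain family, was at 0.440 to 1.07 TPM in SMAD4-negative and 12.6 to 24.7 TPM in SMAD4-positive libraries. The diphosphate kinase genes NME4 (54.5 to 89.9 against 200 to 586 TPM) and NME3 (19 to 40.2 against 57.5 to 147 TPM) did not overlap between the groups, unlike NME1. SLC29A1, the equilibrative nucleoside transporter through which gemcitabine enters, was at 34.7 to 77.1 against 156 to 375 TPM. The ribonucleotide reductase subunits RRM2 (75.7 to 147 against 235 to 591 TPM) and RRM2B (8.3 to 13 against 16.6 to 36.7 TPM) were lower in SMAD4-negative libraries, as was the adenosine deaminase gene ADA (11 to 33.4 against 20.9 to 63.2 TPM). AK4, a mitochondrial adenylate kinase gene, was the only one of the 8 higher there, at 16.8 to 41.8 against 0.256 to 26 TPM. As they were chosen by this difference, it is given as a description, with log2 differences from -4.70 (NT5DC3) to 2.15 (AK4).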

How the data were processed

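The 26 libraries were quantified by the authors with kallisto 0.46.1 against Ensembl release 103 of GRCh38, and the table the authors deposited, made with tximport, gives TPM and estimated counts. The deposited estimated counts were rebuilt by tximport (length-scaled TPM) and are not normalized between libraries. Of 30 deposited re-estimates per library, 5 were used for estimation error, and 650 columns were not used. Estimated counts were rounded for edgeR 4.0.16 (TMM, filterByExpr, quasi-likelihood test, Benjamini-Hochberg adjustment over all genes). Totals of 27035724 to 34945608 limit genes with few counts, such as CDA in SMAD4-positive libraries. limma 3.58.1 tested spread on log2(TPM + 1) for genes averaging 1 TPM or more. Correlations used 100000 permutations. R 4.3.3, DESeq2 1.42.0, Python 3.11.15, numpy 2.4.6, pandas 2.3.3 and scipy 1.17.1 were used.

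Libraries were grouped by SMAD4 below or above 1 TPM, and by label. The 10 genes and all lists were chosen with earlier results of these data known. Named genes were all 10, SMAD4, VIM, CDH1 and CDKN2A, with other cell type markers. The list genes with the largest differences (at most 8, at least 10 TPM) were also named, and for CDA and DCK the 3 most correlated genes per group. Positions are from GENCODE 44 and promoters from RefSeq. The edgeR test between groups, the limma spread test and the permutation test of correlations were tried on simulated data. Alternatives were other scalings, filters, pseudocounts (0.1 and 5), tests, covariates, labels taken singly, each library left out, and, chosen after seeing the data, re-estimated counts without length scaling.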

Additional observations from a re-analysis of the deposited data

How the results depend on the processing

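Between the SMAD4 groups, 12 other settings and the omission of each of the 26 libraries kept CDA and SAMHD1 past both thresholds wherever they were tested. The exception is a filter of at least 10 CPM, which removed CDA and left 1 of the 10 genes called. Leaving out a library left 2 called by both thresholds and 7 to 8 by adjusted p alone, the eighth being NME1 without library 4 labelled Panc1 (log2 difference -0.25, adjusted p 0.0479 by edgeR). The log2 difference of CDA ran from 3.54 to 4.03 and that of SAMHD1 from 1.73 to 2.08 with a library left out. Over the 11 other settings that tested CDA its log2 difference ran from 2.28 with limma on log2(TPM + 5) to 4.33 among libraries labelled BxPC3, and over 12 that of SAMHD1 ran from 1.46 to 2.14. Among all genes, calls by both thresholds were 10222 with no filter on low counts, 3202 with the 10 CPM filter and 3008 with limma on log2(TPM + 5), and by adjusted p alone 8152 with the 10 CPM filter. The first 3 differ from the 6236 reported by over 1.5 times. The filters test other numbers of genes and the larger pseudocount shrinks low genes. No other setting moved the median of all genes by more than 0.035 on the log2 scale.

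CMPK1 and NME1 showed almost no difference among libraries labelled Panc1, at log2 differences of 0.00 and 0.03 (adjusted p 0.983 and 0.870 by edgeR). Between labels DESeq2 called 1 gene, and the other 5 settings and each library left out gave 0, with 0 of the 10 enzymes in all. The spread test called 0 of the 10 under all 6 other settings, but the CDA SD in SMAD4-positive libraries moved from 0.91 to between 0.43 and 1.37 in all 3 other scales, and NT5C3A (0.66 to 0.86) was wider in 2 of them. Without the 2 farthest libraries 0 correlations of DCK and 0 of the proliferation list passed. The correlation of DCK and CDA changed sign in SMAD4-negative libraries as Spearman's rho (0.09) or on log2(CPM + 1) (0.40), and in SMAD4-positive ones without the 2 farthest libraries (0.01). The cause was not tested. Counts of at most 126 per library limit CDA in SMAD4-positive libraries, and estimation error limits NT5C3A. No paired analysis was possible because each library number occurs once.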
